A study of Mus musculus with 12 samples.

Results

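The genes described are 9 secreted factors of the senescence-associated secretory phenotype, taken by gene symbol and chosen with earlier results of these data known. They are Il6, Lif, Cxcl1, Ccl2, Ccl5, Csf1, Cx3cl1, Il33 and Lcn2, 9 of 18607 genes listed in at least 1 of the tables. Their mRNA was measured in cultures labelled primary neuron from C57BL/6 mice, in 12 libraries, 3 in each of 4 groups, all collected on day 10. The study set up a pair of ageing models and asked which pathways they share.

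In the oncogene model, cultures that over-express H-Ras(G12V), a constitutively active mutant of the small GTPase H-Ras, were set against mCherry controls. The vector was an adeno-associated virus, and mCherry is a fluorescent protein. In the chemical model, cultures labelled wild type were given etoposide, a topoisomerase II poison that leaves DNA breaks, and were set against cultures given its solvent DMSO. The sources used here do not give the transgene's promoter, the etoposide dose, or the age and sex of the animals. They do not say whether replicate libraries are separate cultures, and p-values here reflect the spread of the libraries alone, a spread that may be technical. The labels of the chemical model disagree with themselves. Titles and library names put 3 libraries under etoposide and 3 under DMSO, while their treatment tags say the reverse. Groups follow the titles, as the table columns do, and what is called etoposide here is what the titles call so.

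Cells that stop dividing after oncogene activation or lasting DNA damage are known to release inflammatory cytokines, chemokines and growth factors. The transcription factors NF-kappaB and C/EBP-beta drive much of this programme, and IL-6 family cytokines signal onward through gp130 and STAT3. In brain, chemokines of this group are known to draw in and activate microglia and blood-borne leukocytes, and neurons themselves are the main source of fractalkine, the product of Cx3cl1.

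Promoter sequences are shown for the 4 members in which the consensus of NF-kappaB or the AP-1 motif TGANTCA lies within 250 bases upstream of the start, because these factors are known to act on such genes. They are RefSeq sequences of build GRCm38.p6, written 5′ to 3′, with these motifs in capitals. For Cxcl1 and Lif, 4 and 11 bases next to the start that belong to an annotated exon are left out.
Il6, chr5:30012864-30013113, plus strand: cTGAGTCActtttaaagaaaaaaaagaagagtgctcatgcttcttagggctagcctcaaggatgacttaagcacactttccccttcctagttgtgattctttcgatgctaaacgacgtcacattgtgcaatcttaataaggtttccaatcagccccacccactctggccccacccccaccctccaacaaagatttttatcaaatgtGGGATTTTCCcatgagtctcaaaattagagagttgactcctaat
Lif, chr11:4257318-4257556, plus strand: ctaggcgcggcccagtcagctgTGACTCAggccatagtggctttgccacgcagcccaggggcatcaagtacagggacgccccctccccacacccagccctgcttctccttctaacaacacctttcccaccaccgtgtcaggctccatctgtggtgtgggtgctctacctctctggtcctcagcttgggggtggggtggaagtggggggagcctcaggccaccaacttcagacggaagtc
Cxcl1, chr5:90890995-90891240, plus strand: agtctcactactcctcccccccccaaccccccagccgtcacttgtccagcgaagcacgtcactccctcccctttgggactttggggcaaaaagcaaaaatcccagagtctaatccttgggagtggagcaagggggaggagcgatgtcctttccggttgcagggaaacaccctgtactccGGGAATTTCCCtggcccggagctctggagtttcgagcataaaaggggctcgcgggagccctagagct
Csf1, chr3:107760470-107760719, minus strand: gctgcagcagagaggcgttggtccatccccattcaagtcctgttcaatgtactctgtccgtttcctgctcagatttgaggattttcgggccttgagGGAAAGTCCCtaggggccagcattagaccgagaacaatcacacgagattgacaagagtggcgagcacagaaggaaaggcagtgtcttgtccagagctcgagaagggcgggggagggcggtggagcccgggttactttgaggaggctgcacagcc
Of the 9 members 7 matched an entry of the promoter table, and Ccl2 and Ccl5 did not. Searched on both strands, the NF-kappaB consensus lay in 3 of the 7, against 4.46% of 27025 genes. It lay at bases -44 to -35 in Il6, at -154 to -145 in Csf1 and at -71 to -61 in Cxcl1, where matches on both strands overlap. TGANTCA lay in 2 of the 7, against 7.82% of genes, at -249 to -243 in Il6 and at -228 to -222 in Lif. The C/EBP motif TTNNGNAA lay in Il6, Il33 and Lcn2, against 40.3% of genes. The STAT motif TTCNNNGAA and the interferon-stimulated response element lay in 0 of the 7, against 8.13% and 3.46% of genes. These matches describe the letters only.

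Some libraries stood apart from the rest of their group. Spearman's rho across genes was 0.997 between mCherry libraries 1 and 2, while mCherry library 3 reached 0.929 and 0.925 with this pair and 0.928 to 0.940 with H-Ras(G12V). Likewise, etoposide library 3 was closer to DMSO (rho 0.931 to 0.979) than to etoposide library 1 (0.811) or 2 (0.881). Member calls, most list counts and some named genes whose call changes are therefore also given without these libraries. Values are FPKM, fragments scaled to transcript length and library total, and a rough estimate of depth was 15600000 to 17000000 fragments in the oncogene model and 27400000 to 33200000 in the chemical model. A transcript of 1 kb with 1 fragment then reads about 0.059 to 0.064 FPKM and 0.030 to 0.036 FPKM. Mouse Hras read 38.41, 51.63 and 33.46 FPKM with H-Ras(G12V), against 45.94, 42.98 and 44.20 FPKM with mCherry. The transgene's species is unstated in the sources used here, so this gene does not check the labels.

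Neuronal markers were abundant in all groups, and markers of other cells were present as well. The 14 neuronal markers, among them Map2, Rbfox3 and Snap25, summed to 1610 to 1918 FPKM with H-Ras(G12V), against 2426 to 2802 with mCherry, with 1 marker higher (Nefm) and 2 lower of 14 tested, and 5 higher and 5 lower without mCherry library 3. In the chemical model they summed to 939, 2212 and 3224 FPKM in etoposide libraries 1, 2 and 3, against 2864 to 2889 with DMSO, and 0 of 14 passed (2 at an unadjusted p of 0.05), or 4 lower without etoposide library 3. Over all tested genes, 10.3% were called higher and 6.67% lower with H-Ras(G12V), or 25.4% and 19.5% without mCherry library 3. With etoposide these shares were 0% and 0.453%, or 18.4% and 13.4% without etoposide library 3. Astrocyte markers summed to 674 to 4048 FPKM over the 12 libraries, so astrocyte transcripts were present beside neuronal ones. The tables give no cell types, so fewer cells of a type and less RNA per cell cannot be told apart.

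Over-expression of H-Ras(G12V) went with higher Lcn2, Il33 and Csf1 mRNA, the 3 members that passed, and none passed in the lower direction. Tests used limma on log2(FPKM + 1), and 7 of the 9 members reached the mean of 1 FPKM needed for a test. Of all tested genes 17% passed at an adjusted p of 0.05, 10.3% higher and 6.67% lower. Higher calls made up 60.7% of these on FPKM as deposited, 39.3% after scaling to a common sum and 49.3% after median-of-ratios scaling, which put the median log2 fold change of all genes at -0.07 and -0.01. The members' median log2 fold change was 0.93, against 0.05 over all genes. The same 3 members had H-Ras(G12V) libraries that all lay above the mCherry libraries, which was so for 23.7% of tested genes. Il33 averaged under 1 FPKM with mCherry and met the filter through the H-Ras(G12V) libraries, so these counts and the median are descriptions only.

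With etoposide, Il6, Lif, Cxcl1, Ccl2 and Lcn2 each read higher in all 3 libraries than in any DMSO library, but 0 of 8 tested members passed in limma. Of all tested genes 0.453% passed, 0% higher and 0.453% lower. At an unadjusted p of 0.05, 5 of the 8 members and 13.9% of all genes passed. These 5 were Il6, Lif, Cxcl1 and Ccl2, higher, and Cx3cl1, lower, and did not include Lcn2. Groups without overlap, etoposide higher, were seen in 5 of the 8 members and in 7.64% of tested genes, and the opposite order in 0 of the 8 and in 8.17% of genes. The members' median log2 fold change was 1.63, against 0.09 over all genes. Il6, Lif and Cxcl1 read under 1 FPKM in every DMSO library and met the filter through the etoposide libraries, so these counts and the median are descriptions only.

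**Figure D1:**
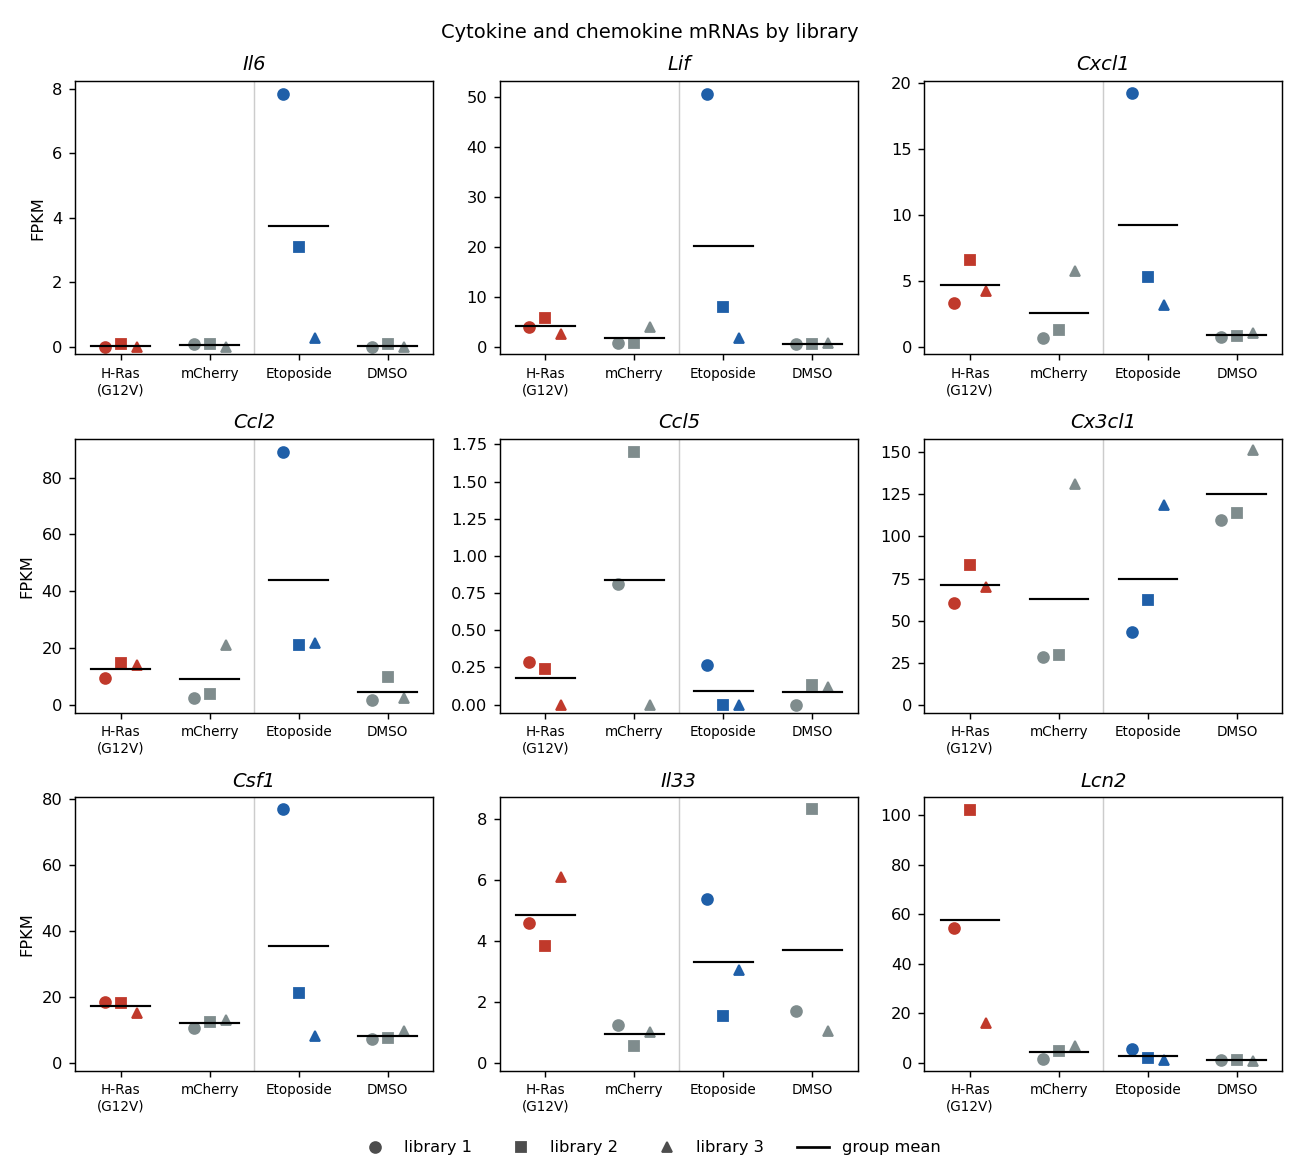
FPKM of the 9 members in each library (symbols: library 1, 2 or 3) with the group mean as a bar, for H-Ras(G12V), mCherry, etoposide and DMSO, each panel on its own linear axis from about 0. Etoposide library 1 is the highest etoposide library for 8 of the 9 members, against 31.8% of all tested genes. The 8 include Ccl5, which was not tested. Library 3 is the highest mCherry library for 6 of the members, against 43.7% of all tested genes.

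Il6 encodes interleukin 6, the founding cytokine of the gp130 family. In the oncogene model it was close to the detection limit, at 0, 0.07 and 0 FPKM with H-Ras(G12V), against 0.08, 0.07 and 0 FPKM with mCherry, and was not tested. With etoposide it read 7.85, 3.08 and 0.27 FPKM, against 0, 0.08 and 0 FPKM with DMSO. Each etoposide library lay above the DMSO libraries, and the etoposide libraries spanned a 29.1-fold range. The log2 fold change of 1.80 ± 0.59 (SE) missed the threshold (limma adjusted p = 0.353).

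Lif encodes leukaemia inhibitory factor, a gp130 cytokine known from glial and neuronal injury. It read 3.87, 5.69 and 2.52 FPKM with H-Ras(G12V), against 0.66, 0.64 and 3.92 FPKM with mCherry. Library 3 of mCherry lay within the H-Ras(G12V) values and the other mCherry libraries below them, and the log2 fold change of 1.03 ± 0.46 (SE) missed the threshold (adjusted p = 0.163). The etoposide libraries read 50.78, 7.96 and 1.64 FPKM, against 0.51, 0.49 and 0.72 FPKM with DMSO. The groups did not overlap. The ratio of means was 35.1, and 8.37 without etoposide library 1, and the log2 fold change of 2.77 ± 0.87 (SE) missed the threshold (adjusted p = 0.353).

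Cxcl1 encodes a chemokine that attracts neutrophils through CXCR2. It read 3.31, 6.56 and 4.19 FPKM with H-Ras(G12V), against 0.64, 1.23 and 5.69 FPKM with mCherry. The groups overlapped through mCherry library 3 (log2 fold change 0.93 ± 0.51 SE, adjusted p = 0.244). With etoposide it read 19.20, 5.30 and 3.18 FPKM, against 0.73, 0.80 and 0.99 FPKM with DMSO. Each etoposide library was above the DMSO libraries, at a ratio of means of 11.0, or 5.05 without etoposide library 1, and the log2 fold change of 2.14 ± 0.52 (SE) missed the threshold (adjusted p = 0.210).

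Ccl2 encodes the monocyte attractant MCP-1, which signals through CCR2. It read 9.24, 14.84 and 13.80 FPKM with H-Ras(G12V), against 2.38, 3.92 and 20.94 FPKM with mCherry. The highest of these 6 values was in mCherry library 3, and the log2 fold change of 0.91 ± 0.65 (SE) missed the threshold (adjusted p = 0.360). The etoposide libraries read 89.16, 21.09 and 21.58 FPKM, against 1.59, 9.78 and 2.32 FPKM with DMSO. The groups did not overlap, and etoposide library 3 was here level with library 2. Its log2 fold change of 2.97 ± 0.66 (SE) was the highest of the 8 tested members and missed the threshold (adjusted p = 0.160).

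Ccl5 encodes RANTES, an attractant of T cells and monocytes. It read 0.29, 0.24 and 0 FPKM with H-Ras(G12V), against 0.81, 1.70 and 0 FPKM with mCherry. With etoposide it read 0.27, 0 and 0 FPKM, against 0, 0.13 and 0.12 FPKM with DMSO. The groups overlapped in both models, and it was not tested in either.

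Cx3cl1 encodes fractalkine, a membrane-bound chemokine of neurons whose receptor CX3CR1 sits on microglia. Per transcript length it had the highest mean of the 9 members in each group. It read 60.58, 82.83 and 69.98 FPKM with H-Ras(G12V), against 28.37, 29.34 and 131.43 FPKM with mCherry. The H-Ras(G12V) libraries lay between the mCherry libraries, with library 3 of mCherry far above and the others below (log2 fold change 0.54 ± 0.56 SE, adjusted p = 0.523). The etoposide libraries read 43.14, 62.41 and 118.75 FPKM, against 109.55, 113.78 and 151.68 FPKM with DMSO. Etoposide libraries 1 and 2 were below all DMSO libraries and library 3 was among them, and the log2 fold change of -0.84 ± 0.37 (SE), the only negative one of the 8, missed the threshold (adjusted p = 0.357).

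Csf1 encodes macrophage colony-stimulating factor, which maintains microglia through CSF1R. It read 18.57, 18.15 and 15.24 FPKM with H-Ras(G12V), against 10.52, 12.30 and 13.10 FPKM with mCherry. The groups did not overlap, with means of 17.3 ± 1.81 and 11.97 ± 1.32 FPKM (SD, n = 3 each) and a log2 fold change of 0.50 ± 0.14 (SE, limma adjusted p = 0.0483). This small rise lost its call without any single library except mCherry library 3 (adjusted p = 0.0870 to 0.179) and under both other scalings of the libraries (0.117 and 0.0794). The etoposide libraries read 76.98, 21.20 and 7.99 FPKM, against 7.21, 7.48 and 9.69 FPKM with DMSO. Libraries 1 and 2 were above the DMSO libraries and library 3 was within them (log2 fold change 1.46 ± 0.65 SE, adjusted p = 0.357).

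Il33 encodes interleukin 33, a nuclear cytokine of the IL-1 family released by damaged cells, which in brain is known from astrocytes and oligodendrocytes. It read 4.59, 3.83 and 6.10 FPKM with H-Ras(G12V), against 1.23, 0.56 and 1.01 FPKM with mCherry. All H-Ras(G12V) libraries were above the mCherry libraries, with means of 4.84 ± 1.16 and 0.933 ± 0.342 FPKM (SD, n = 3 each). It rose by a log2 fold change of 1.59 ± 0.21 (SE, limma adjusted p = 0.00590), and passed without each library in turn (0.000894 to 0.0348). It lost the call in a single fit of the 12 libraries (0.0929), which pools the spread of both models. In the chemical model Il33 read 5.36, 1.53 and 3.04 FPKM with etoposide, against 1.70, 8.32 and 1.05 FPKM with DMSO. DMSO library 2 held the highest of these values, and the log2 fold change was 0.11 ± 0.57 (SE, adjusted p = 0.931).

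Lcn2 encodes lipocalin 2, an iron-carrier-binding protein that reactive astrocytes release. It read 54.41, 102.16 and 16.23 FPKM with H-Ras(G12V), against 1.63, 4.80 and 6.73 FPKM with mCherry. The groups did not overlap although the H-Ras(G12V) libraries spanned a 6.29-fold range, and the means were 57.6 ± 43.1 and 4.39 ± 2.58 FPKM (SD, n = 3 each). It rose by a log2 fold change of 3.24 ± 0.68 (SE, limma adjusted p = 0.0229). It no longer passed without H-Ras(G12V) library 1 (adjusted p = 0.0869) or 2 (0.0721), without mCherry library 1 (0.0666) or 2 (0.0582), and when mCherry libraries 1 and 2 were averaged (0.0599). With etoposide it read 5.48, 1.84 and 1.33 FPKM, against 1.13, 1.16 and 0.93 FPKM with DMSO, groups that did not overlap but sat close together (log2 fold change 0.76 ± 0.38 SE, adjusted p = 0.376).

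**Figure D2:**
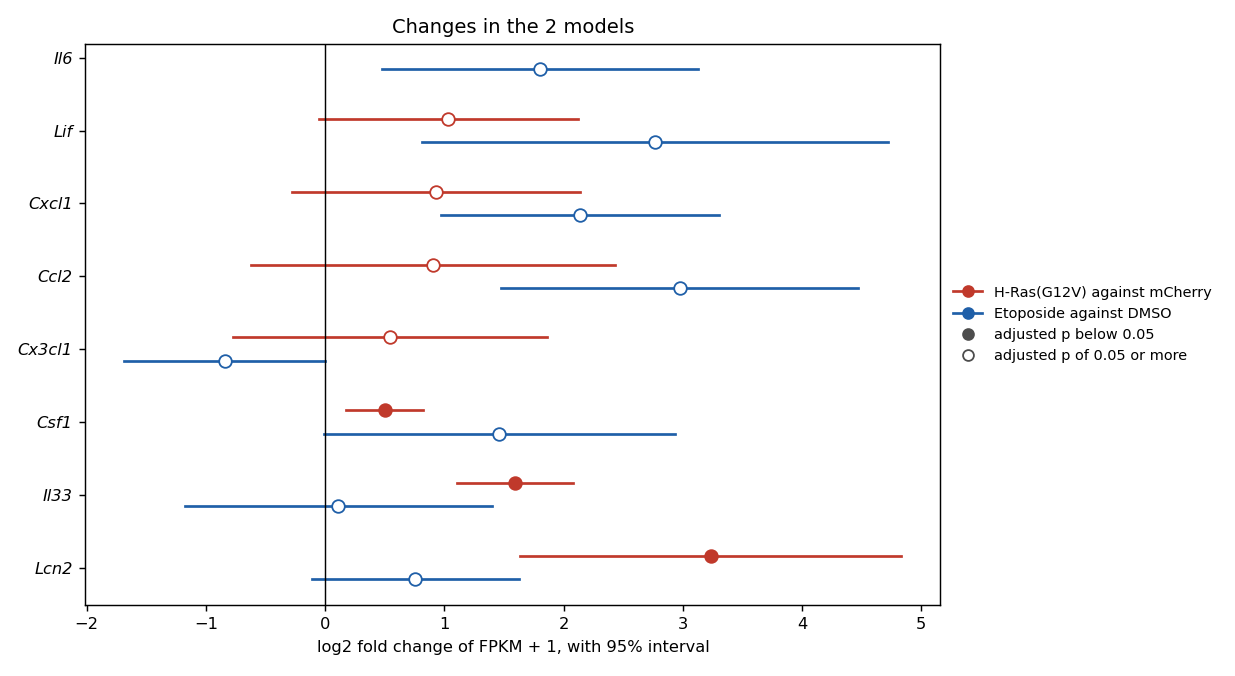
Log2 fold change of FPKM + 1 of the 8 members tested in at least 1 model, H-Ras(G12V) against mCherry in red and etoposide against DMSO in blue, with 95% confidence intervals from limma and filled points at an adjusted p below 0.05. The filled points are Csf1, Il33 and Lcn2 in the oncogene model, and Il6 has a point in the chemical model alone because it was not tested in the other.

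Most members' calls changed without the libraries that stand apart. Without mCherry library 3, 7 of 7 members passed higher, with log2 fold changes of 1.56 for Lif, 1.53 for Cxcl1, 1.72 for Ccl2 and 1.26 for Cx3cl1 (adjusted p = 0.00213, 0.00234, 0.000966 and 0.000411). That fit called 44.9% of all tested genes, 25.4% higher and 19.5% lower, in place of 17%, and rests on mCherry libraries 1 and 2 as the controls, the pair with a rank correlation of 0.997. Over all tested genes, 43.7% were highest among the mCherry libraries in library 3. Without etoposide library 3, 7 of 8 members passed, all but Il33, in a fit that called 31.8% of all tested genes, 18.4% higher and 13.4% lower, in place of 0.453%. Log2 fold changes were then 2.55 for Il6, 3.78 for Lif, 2.62 for Cxcl1, 3.30 for Ccl2, 2.20 for Csf1, 1.05 for Lcn2 and -1.24 for Cx3cl1. Their adjusted p ran from 0.000667 for Il6 to 0.0393 for Lcn2. In mCherry libraries 1 and 2 Lif read 0.66 and 0.64 FPKM, Cxcl1 0.64 and 1.23 FPKM and Il33 1.23 and 0.56 FPKM, averages under 1 FPKM. These genes met the filter through the H-Ras(G12V) libraries in that fit, and Il6, Lif and Cxcl1 through the etoposide libraries in the other. Both member counts are therefore descriptions only.

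**Figure D3:**
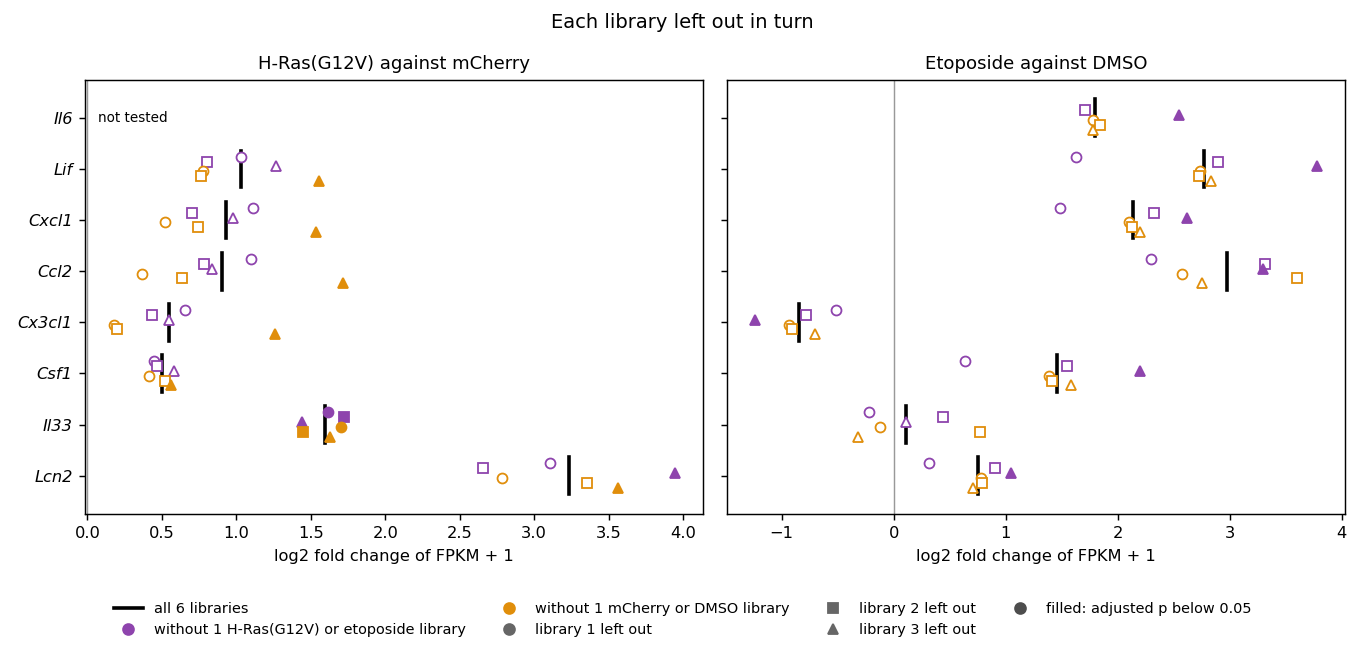
Log2 fold change of FPKM + 1 of each tested member with all 6 libraries of a model (black bar) and with each library left out in turn (symbols), filled where limma's adjusted p is below 0.05. Il33 is filled in each of its 6 fits of H-Ras(G12V) against mCherry, and in the chemical model filled symbols appear without etoposide library 3 alone.

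The difference between the models was tested as the effect of H-Ras(G12V) less that of etoposide, on 12 libraries. Of the 7 members tested, 0 passed in limma, against 3.76% of all tested genes (3.4% higher, 0.356% lower), and at an unadjusted p of 0.05 1 of 7 passed, Lcn2, against 18.3% of genes. The Lcn2 difference was 2.48 with a 95% interval of 0.67 to 4.29 (adjusted p = 0.143). For Il33 it was 1.48 (interval -0.00485 to 2.97, adjusted p = 0.274) and for Cx3cl1 1.39 (interval -0.17 to 2.94, adjusted p = 0.322). Ccl2 had a difference of -2.07 (interval -4.31 to 0.17, adjusted p = 0.308), Lif of -1.74 (interval -4.20 to 0.72, adjusted p = 0.430), Cxcl1 of -1.21 (interval -2.94 to 0.52, adjusted p = 0.432) and Csf1 of -0.96 (interval -2.64 to 0.71, adjusted p = 0.518). Of these intervals 6 of 7 included 0. Single libraries changed this for some members. Without etoposide library 3 Lif passed at -2.75 (0.0402) and Csf1 at -1.70 (0.0382), in a fit that called 22.6% of all tested genes. Without H-Ras(G12V) library 3 Lcn2 passed at 3.19 (0.0328), where 2.2% of all tested genes did. Without mCherry library 3 Cx3cl1 passed at 2.11 (0.0175), where 7.67% did. The differences between the models depend on the titles. With the chemical model grouped by its treatment tags, a setting added after seeing the data, the Lcn2 difference was 3.99 and passed (0.0350), and those of Lif, Cxcl1, Ccl2, Csf1 and Cx3cl1 changed sign, at 3.80, 3.07, 3.88, 1.96 and -0.30, and did not pass.

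Group means put etoposide first for Il6, Lif, Cxcl1, Ccl2 and Csf1, and H-Ras(G12V) first for Il33 and Lcn2. Tables were normalised separately, so this order across models is a description. Etoposide means were 3.73 FPKM for Il6, 20.1 for Lif, 9.23 for Cxcl1, 43.9 for Ccl2 and 35.4 for Csf1. In the H-Ras(G12V) cultures the means were 0.0233, 4.03, 4.69, 12.6 and 17.3 FPKM in the same order of genes. The spread of the etoposide libraries reached the H-Ras(G12V) values for Lif, Cxcl1 and Csf1, and lay above them for Il6 and Ccl2.

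Receptors of these ligands were listed unevenly. Of 17 receptors on the list, 7 were tested with H-Ras(G12V), of which 2 rose and 0 fell, and 6 with etoposide, of which 0 passed (0 also at an unadjusted p of 0.05). Without mCherry library 3, 4 rose and 1 fell, and without etoposide library 3, 1 rose and 1 fell. Among all tested genes, 10.3% rose and 6.67% fell with H-Ras(G12V), or 25.4% and 19.5% without mCherry library 3. For etoposide the shares were 0% and 0.453%, or 18.4% and 13.4% without etoposide library 3. Il6ra, the IL-6 receptor chain, read 1.92, 2.72 and 1.54 FPKM with H-Ras(G12V), against 0.44, 0.50 and 0.72 FPKM with mCherry (log2 fold change 0.96, limma adjusted p = 0.0181). The groups did not overlap, and it no longer passed without H-Ras(G12V) library 1 (0.0740) and without mCherry library 1 (0.0715) or 2 (0.0681). Il6ra read under 1 FPKM in every mCherry library and met the filter through the H-Ras(G12V) libraries. With etoposide its log2 fold change was 0.66 (limma adjusted p = 0.363).

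Il1rap, the accessory chain of the IL-1 and IL-33 receptors, read 20.93, 16.20 and 30.71 FPKM with H-Ras(G12V), against 4.86, 4.85 and 11.64 FPKM with mCherry (log2 fold change 1.60, adjusted p = 0.0269). It kept the call without mCherry library 3 and lost it without any other single library (0.0593 to 0.0976). With etoposide its log2 fold change was -0.04 (limma adjusted p = 0.963). Il6st, which encodes gp130, read 22.84, 19.71 and 20.99 FPKM with H-Ras(G12V), against 16.78, 16.19 and 19.44 FPKM with mCherry (adjusted p = 0.177, and 0.0343 without mCherry library 3). Lifr, the LIF receptor, read 6.39, 4.73 and 6.28 FPKM against 3.55, 3.73 and 5.87 FPKM in the same groups (adjusted p = 0.260, and 0.0192 without mCherry library 3). Receptors of leukocytes and microglia that are named here were near 0 throughout. Csf1r, the receptor of Csf1, did not exceed 1.13 FPKM in any library, Cx3cr1 did not exceed 0.31, Cxcr2 0.62 and Il1rl1, the IL-33 receptor, 0.28. Ccr2 was listed at 0 in 11 libraries and at 0.01 FPKM in DMSO library 2. Slc22a17, a lipocalin 2 receptor, read 161.05, 216.78 and 170.34 FPKM with H-Ras(G12V), against 159.59, 150.33 and 218.82 FPKM with mCherry, overlapping groups.

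Other cytokines and chemokines were taken as a list. Of 48 on the list, 15 were tested with H-Ras(G12V), of which 4 rose and 1 fell, and 14 with etoposide, of which 0 passed (8 at an unadjusted p of 0.05). The H-Ras(G12V) fit called 10.3% of all tested genes higher and 6.67% lower, and 13.9% had an unadjusted p below 0.05 with etoposide. Without mCherry library 3, 9 rose and 3 fell of 14, against 25.4% higher and 19.5% lower of all tested genes. Without etoposide library 3, 6 rose and 3 fell of 15, against 18.4% higher and 13.4% lower. Clcf1 and Il11 belong to the gp130 family of Il6 and Lif. Clcf1 read 13.01, 25.69 and 4.07 FPKM with H-Ras(G12V), against 0.67, 0.47 and 0.78 FPKM with mCherry, and rose by a log2 fold change of 2.92 (limma adjusted p = 0.0162). It lost the call without H-Ras(G12V) library 1 (0.0692) and without mCherry library 1 (0.0508) or 2 (0.0524). Clcf1, Il11 and Tslp each read under 1 FPKM in every mCherry library. They met the filter through the H-Ras(G12V) libraries, so counts that hold them are descriptions only. Il11 read 3.61, 5.02 and 1.15 FPKM with H-Ras(G12V), against 0.19, 0.31 and 0.58 FPKM with mCherry (log2 fold change 1.53, adjusted p = 0.0340), and lost the call without H-Ras(G12V) library 1 or 2 or mCherry library 1 or 2 (0.0950 to 0.121).

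In the chemical model both followed the order of the libraries seen for Il6 and Lif. Il11 read 74.83, 17.87 and 0.35 FPKM with etoposide, against 0.23, 0.11 and 0.08 FPKM with DMSO, and Clcf1 read 17.11, 4.94 and 0.30 FPKM, against 0.06, 0.07 and 0.10 FPKM. Neither passed (adjusted p = 0.353 for each), with groups that did not overlap. Il11, Clcf1 and Cxcl2 read under 1 FPKM in every DMSO library and met the filter through the etoposide libraries. Without etoposide library 3 both passed, Il11 at a log2 fold change of 5.05 (0.000188) and Clcf1 at 3.27 (0.000602). Ccl7, which lies next to Ccl2 in the genome and signals through the same receptor, read 71.29, 14.08 and 13.03 FPKM with etoposide, against 0.68, 7.99 and 2.59 FPKM with DMSO (log2 fold change 2.71, adjusted p = 0.289, and 3.12 and 0.0110 without etoposide library 3). Cxcl2, a neighbour of Cxcl1, read 5.66, 2.92 and 0.17 FPKM with etoposide, against 0, 0 and 0.04 FPKM with DMSO (adjusted p = 0.353, and 0.000431 without etoposide library 3).

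Of the other 3 calls in this list with H-Ras(G12V), 1 was lower and 2 were higher. Cxcl12, a chemokine of stromal and meningeal cells that signals through CXCR4, fell to 2.61, 4.22 and 2.37 FPKM with H-Ras(G12V), against 39.06, 34.84 and 25.98 FPKM with mCherry (log2 fold change -3.08, adjusted p = 0.00126). It passed under each of 15 alternatives (4.66e-05 to 0.0149). With etoposide its log2 fold change was -1.74 (limma adjusted p = 0.353). The difference between the models, at -1.35, did not pass (limma adjusted p = 0.355). Fibroblast, mural and meningeal markers were lower in the same libraries, summing to 60.4 to 86.0 FPKM with H-Ras(G12V) against 190 to 312 FPKM with mCherry. Of 10 tested markers 8 were lower, against 6.67% of all tested genes. With etoposide these markers summed to 156 to 636 FPKM, against 100 to 436 FPKM with DMSO. Their median log2 fold change there was 0.20, against 0.09 over all genes, and 0 of 10 passed, against 0.453% of all tested genes. Without etoposide library 3, 1 of 9 was higher and 0 lower, against 18.4% and 13.4% of all tested genes. The part of these markers in the Cxcl12 result was not tested. Tslp, an epithelial cytokine, read 4.36, 3.29 and 2.78 FPKM with H-Ras(G12V), against 0.28, 0 and 0.15 FPKM with mCherry, and rose by a log2 fold change of 1.96 (adjusted p = 0.00233). It met the filter through the H-Ras(G12V) libraries, and it passed under each of 14 alternatives. Il18, an IL-1 family cytokine, rose to 26.74, 20.54 and 29.18 FPKM with H-Ras(G12V), against 13.22, 13.28 and 16.37 FPKM with mCherry (log2 fold change 0.78, adjusted p = 0.0231), and lost the call without H-Ras(G12V) library 1 or 3 or mCherry library 1 or 2. In the chemical model it read 11.31, 8.33 and 7.16 FPKM with etoposide, against 18.57, 14.27 and 21.30 FPKM with DMSO (adjusted p = 0.353, and 0.0471 without etoposide library 3). The inflammatory triggers Il1a, Il1b and Tnf did not exceed 1.13 FPKM in any library and were not tested. Within this range Il1b read 0.59, 0.91 and 0.98 FPKM with H-Ras(G12V), against 0.11, 0.17 and 0 FPKM with mCherry, groups that did not overlap.

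Inducers and response genes were described as lists. Of 20 inducers, 14 were tested with H-Ras(G12V), of which 3 rose and 0 fell, and 13 with etoposide, of which 0 passed (5 at an unadjusted p of 0.05). Their median log2 fold changes were 0.46 and 0.62. All tested genes gave 10.3% higher and 6.67% lower calls with H-Ras(G12V), and 13.9% at an unadjusted p of 0.05 with etoposide. Without mCherry library 3, 10 inducers rose and 1 fell, against 25.4% higher and 19.5% lower of all tested genes. Without etoposide library 3, 7 inducers rose and 0 fell, against 18.4% higher and 13.4% lower. The 3 that rose with all libraries were Cebpd, a C/EBP factor, Stat3, the transcription factor below gp130, and Il1r1, the IL-1 receptor. Stat3 read 78.45, 77.96 and 74.09 FPKM with H-Ras(G12V), against 34.20, 31.48 and 59.26 FPKM with mCherry (log2 fold change 0.92, limma adjusted p = 0.0386). Cebpd read 19.40, 26.20 and 14.68 FPKM with H-Ras(G12V), against 3.04, 4.42 and 12.23 FPKM with mCherry (log2 fold change 1.64, adjusted p = 0.0452). Without single libraries, both kept the call without mCherry library 3 and lost it without any other (0.110 to 0.123 for Stat3, 0.0972 to 0.145 for Cebpd). Both also lost it under both other scalings (0.0519 to 0.0628). With etoposide the log2 fold changes were 0.26 for Stat3, 1.43 for Cebpd and 1.55 for Il1r1 (limma adjusted p = 0.683, 0.353 and 0.340). Il1r1 read 7.01, 5.97 and 3.55 FPKM with H-Ras(G12V), against 1.49, 1.68 and 2.40 FPKM with mCherry (log2 fold change 1.16, adjusted p = 0.0225), and lost its call without H-Ras(G12V) library 1 or 2 or mCherry library 1 or 2 (0.0736 to 0.0857). Cebpb, the C/EBP factor most tied to this secretory programme, read 56.64, 47.44 and 8.19 FPKM with etoposide, against 5.73, 9.92 and 8.06 FPKM with DMSO (log2 fold change 1.76, adjusted p = 0.353, and 2.60 and 0.000311 without etoposide library 3).

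Of 14 NF-kappaB and STAT3 response genes, 12 were tested with H-Ras(G12V), of which 6 rose and 0 fell, with a median log2 fold change of 0.76. With etoposide 11 were tested and 0 passed (6 at an unadjusted p of 0.05, median 0.65). All tested genes gave 10.3% higher and 6.67% lower calls with H-Ras(G12V), and 13.9% at an unadjusted p of 0.05 with etoposide. Without mCherry library 3, 9 response genes rose and 2 fell of 11, against 25.4% higher and 19.5% lower of all tested genes. Without etoposide library 3, 5 response genes rose and 1 fell, against 18.4% higher and 13.4% lower. Socs3, the feedback inhibitor of gp130 signalling, read 11.25, 14.00 and 11.03 FPKM with H-Ras(G12V), against 2.74, 1.96 and 2.12 FPKM with mCherry. It rose by a log2 fold change of 2 (adjusted p = 0.00153) and passed without each library in turn, and lost the call in the single fit of 12 libraries (0.0766). With etoposide Socs3 read 21.17, 4.44 and 1.32 FPKM, against 0.84, 1.38 and 1.18 FPKM with DMSO, overlapping groups. Osmr, the oncostatin M receptor, read 15.87, 13.60 and 10.32 FPKM with H-Ras(G12V), against 2.70, 3.11 and 6.02 FPKM with mCherry (log2 fold change 1.57, adjusted p = 0.0134), and lost the call without H-Ras(G12V) library 1 (0.0614) or 2 (0.0576). Steap4, a metalloreductase induced by inflammation, read 6.04, 7.91 and 2.40 FPKM with H-Ras(G12V), against 0.70, 1.38 and 0.82 FPKM with mCherry (log2 fold change 1.62, adjusted p = 0.0259), and lost the call without H-Ras(G12V) library 1 or 2 or mCherry library 1 or 2 (0.0555 to 0.1003). Serpina3n, a serpin of reactive astrocytes, read 328.37, 325.90 and 174.76 FPKM with H-Ras(G12V), against 20.31, 20.08 and 142.24 FPKM with mCherry (log2 fold change 2.73, adjusted p = 0.0461). Of the fits without 1 library it passed without mCherry library 3 alone (0.101 to 0.144 in the others). It lost the call under both other scalings (0.0543 and 0.0526). With etoposide the log2 fold change was 1.23 for Osmr and -0.38 for Serpina3n (limma adjusted p = 0.353 and 0.523). The proteases that shed fractalkine, Adam10, Adam17 and Ctss, passed in neither model, 0 of 3 in each, with 1 at an unadjusted p of 0.05 with H-Ras(G12V) and 0 with etoposide. Without mCherry library 3, and without etoposide library 3, 1 of 3 rose.

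**Figure D4:**
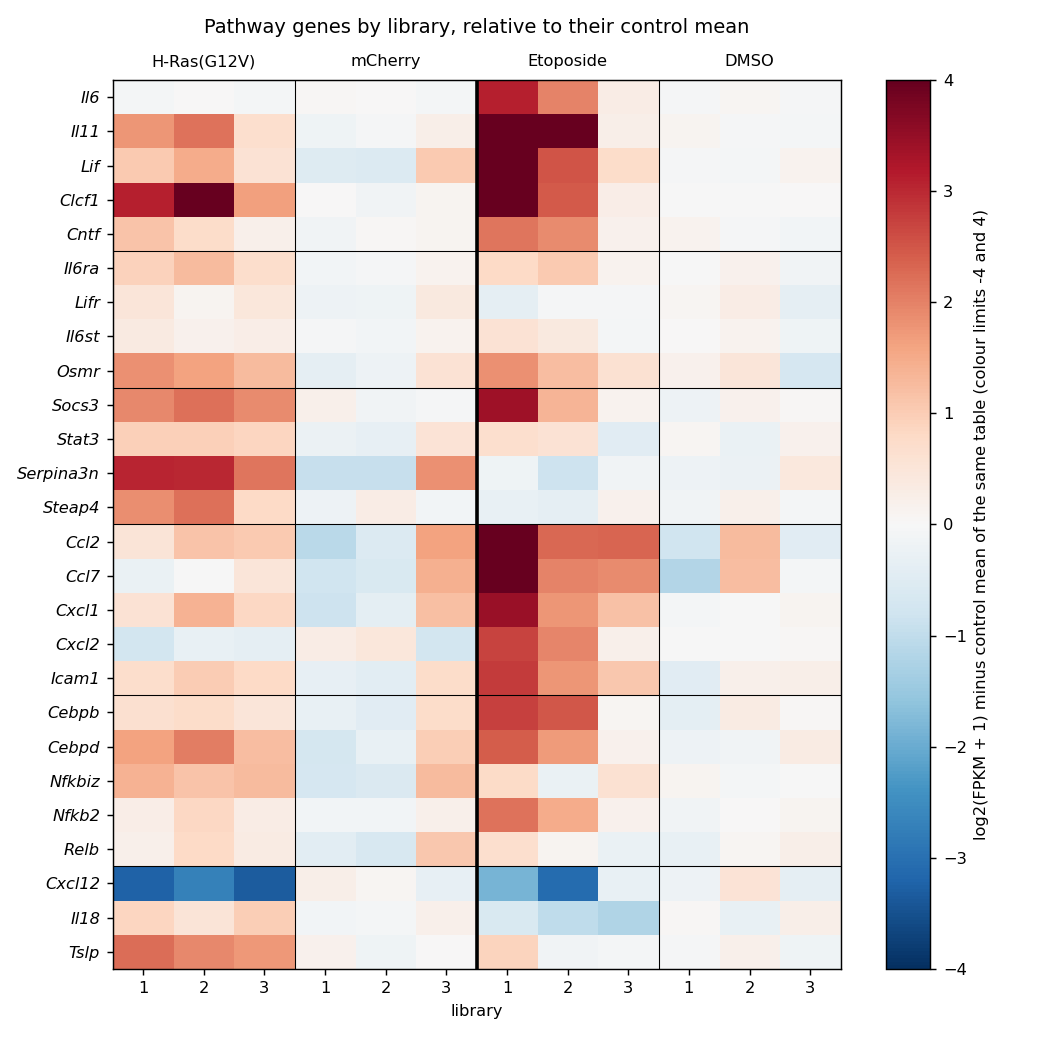
Log2(FPKM + 1) of 26 genes in the 12 libraries minus the mean of the mCherry or DMSO libraries of the same table, with colour from -4 (blue) to 4 (red). Rows run from gp130 cytokines and their receptors through STAT3 response genes, chemokines with Icam1, and inducers to Cxcl12, Il18 and Tslp. Etoposide library 1 holds the highest values for the gp130 cytokines, and etoposide library 3 is close to the DMSO libraries in most rows.

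Some members had a like pattern over libraries. The measure was Pearson's r of log2(FPKM + 1) over 12 libraries, each centred on its table mean, among 12179 genes, and it is descriptive because the points share libraries and groups. Lif and Cxcl1 had an r of 0.959, Lif and Csf1 0.958, and Cxcl1 and Ccl2 0.927. Cx3cl1 had an r between -0.459 and 0.200 with the other 6. The genes most like Lif were Cd14 (0.979), Nr1d1 (0.973) and Cryab (0.969), and those most like Cxcl1 were Icam1 (0.969), Lif (0.959) and Slc37a2 (0.958). For Ccl2 they were Ccl7 (0.962), Gadd45b (0.953) and Pter (0.935), and for Csf1 Kctd11 (0.989), Itga5 (0.981) and Itgb3 (0.976).

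The pattern of Cx3cl1 was most like Synpo (0.989), Adra1d (0.984) and Slc17a7 (0.977), the last of which encodes a glutamate transporter of excitatory neurons. Il33 was most like Itgb3bp (0.944), Utp14b (0.904) and Lancl3 (0.886), and Lcn2 most like Ret (0.956), Gal (0.926) and Tspan9 (0.924). Slc17a7 read 177.32, 225.08 and 158.91 FPKM with H-Ras(G12V), against 49.88, 54.04 and 406.61 FPKM with mCherry. Its mCherry library 3 was the highest value, as it was for Cx3cl1.

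Markers of some other cell types also differed between the groups. Microglial and macrophage markers summed to 71.3, 104 and 42.1 FPKM in H-Ras(G12V) libraries 1 to 3, against 20.1 to 42.9 FPKM with mCherry, with 2 of 7 tested markers higher, while P2ry12, Tmem119, Aif1 and Cx3cr1 did not exceed 1.84 FPKM in any library. Tmem119, a marker of resident microglia, read 0.27, 0.46 and 0.10 FPKM with H-Ras(G12V), against 1.54, 0.92 and 1.51 FPKM with mCherry, lower without overlap and not tested. Library 2 was the highest H-Ras(G12V) library for the microglial sum and for 6 of the 9 members, against 38.1% of all tested genes. The 6 include Il6, which was not tested and lay close to the detection limit there. Beside the 2 of 7 markers called higher, the share over all tested genes was 10.3%. Without mCherry library 3 it was again 2 of 7, against 25.4% of all tested genes. Cd68, a lysosomal protein of macrophages, read 13.10, 26.37 and 9.67 FPKM with H-Ras(G12V), against 3.87, 5.94 and 2.24 FPKM with mCherry (log2 fold change 1.74, limma adjusted p = 0.0298), and lost the call without H-Ras(G12V) library 1 or 2 or mCherry library 1.

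With etoposide the microglial sum was 188, 115 and 42.0 FPKM in libraries 1, 2 and 3, against 25.7 to 106 FPKM with DMSO, with 0 of 8 tested markers passing (1 at an unadjusted p of 0.05). Without etoposide library 3, 1 of 8 was higher, against 18.4% of all tested genes. Cd68 read 97.43, 77.45 and 3.78 FPKM, against 3.92, 11.48 and 3.22 FPKM with DMSO. C1qa, also a microglial gene, read 7.06, 1.18 and 2.37 FPKM with etoposide, against 1.42, 11.42 and 0.32 FPKM with DMSO. The neutrophil sum reached 36.6, 25.2 and 0.34 FPKM with etoposide, all but a little of it from S100a8 at 35.59, 24.12 and 0 FPKM, against 0.20 to 0.57 FPKM with DMSO. S100a9 and Mpo, defining neutrophil genes, stayed at or below 0.15 FPKM. S100a8, the only neutrophil marker tested, met the filter through the etoposide libraries. It did not pass (log2 fold change 3.07, limma adjusted p = 0.353), and was called higher at 4.71 without etoposide library 3.

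Astrocyte markers summed to 2962 to 4048 FPKM with H-Ras(G12V), against 1391 to 3628 FPKM with mCherry, the highest of which was mCherry library 3, with 3 of 11 tested markers higher, or 10 without mCherry library 3. Oligodendrocyte lineage markers summed to 922 to 1120 FPKM with H-Ras(G12V), against 229 to 763 FPKM with mCherry, with 6 of 9 higher, or 9 without mCherry library 3. With etoposide the astrocyte sum was 674 to 1059 FPKM, against 1321 to 2144 FPKM with DMSO, and 0 of 11 markers passed (7 at an unadjusted p of 0.05), or 8 lower and 1 higher without etoposide library 3. The oligodendrocyte sum was 77.9 to 220 FPKM with etoposide, against 539 to 908 FPKM with DMSO, and 3 of 8 markers fell, or 6 without etoposide library 3. Endothelial markers summed to 1.91 to 2.19 FPKM with H-Ras(G12V), against 1.54 to 5.22 FPKM with mCherry, and to 1.51 to 5.40 FPKM with etoposide, against 0.52 to 1.80 FPKM with DMSO. Of all tested genes 10.3% were called higher and 6.67% lower with H-Ras(G12V), or 25.4% and 19.5% without mCherry library 3. With etoposide the shares were 0% and 0.453%, or 18.4% and 13.4% without etoposide library 3, and 13.9% at an unadjusted p of 0.05. The part of the marker lists in the members' values was not tested.

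**Figure D5:**
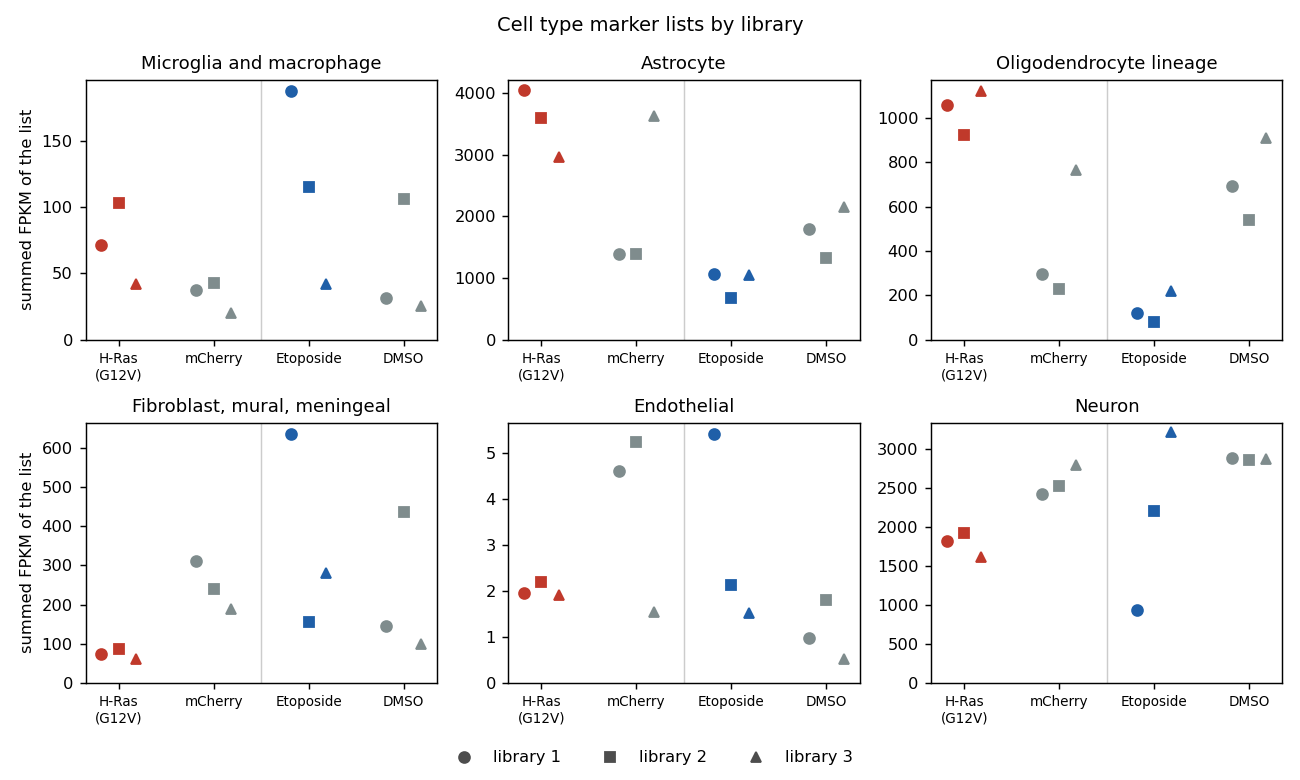
Summed FPKM of 6 marker lists in each library (symbols: library 1, 2 or 3), for H-Ras(G12V), mCherry, etoposide and DMSO, each panel on its own linear axis from 0. Oligodendrocyte markers sum to 922 to 1120 with H-Ras(G12V) and 229 to 763 with mCherry, and to 77.9 to 220 with etoposide and 539 to 908 with DMSO.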

How the data were processed

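FPKM per gene and library, with 2 decimals, were deposited by the authors in 1 table per model. HISAT, Bowtie2, RSEM and mouse build mm9 are named, without roles or versions, per the submitters' processing notes, and per the labels' protocols mRNA was enriched on oligo-dT beads. The tables list 18223 and 17800 genes, of which 17416 are shared, and each was taken to have its own normalisation. Depth was estimated from the steps of low FPKM in genes with 1 transcript in GENCODE M21, a rough measure, and intervals from it are not given.

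Values were analysed as log2(FPKM + 1) with limma 3.58.1 (lmFit, eBayes with trend) in R 4.3.3, for genes averaging 1 FPKM or more over the libraries, two-sided, with Benjamini-Hochberg adjustment over all tested genes and a threshold of 0.05. A log2 fold change on this scale understates the change of low genes. Folds called ratios are ratios of mean FPKM. The difference between models was an interaction contrast over 12 libraries. The test was tried on simulated data. The alternatives were pseudocounts of 0.1 and 5, no filter, a mean of at least 5 FPKM, 2 scalings, a replicate block, a single 12-library fit, mCherry libraries 1 and 2 averaged, and each library left out. The fit without both mCherry library 3 and etoposide library 3, and the difference with the chemical model grouped by its treatment tags, were chosen after seeing the data.

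The members and gene lists were chosen with earlier results of these data known. The text names all members, receptors of members except one that is not reported here, up to 4 called genes per list, up to 3 marker genes per cell type and the 3 genes most like each member. Ccl7, Cxcl2, Cebpb, Il1a, Il1b, Tnf, Tmem119 and Hras were named after their values were seen. Promoters are RefSeq sequences of GRCm38.p6, searched over 250 bases upstream.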

Additional observations from a re-analysis of the deposited data

Results flagged for a closer look

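For 16 listed genes the H-Ras(G12V) effect and the etoposide effect differed in the limma interaction contrast over 12 libraries. None is a member, and differences are on the log2 scale. The cytokines Il18 and Tslp each differed by 1.73 (adjusted p = 0.00848 and 0.0221), and the metalloreductase gene Steap4 by 1.78 (adjusted p = 0.0463). Il18 passed under 21 of 22 alternatives, Tslp under 11 of 18 and Steap4 under 3 of 21. Tslp met the filter through the H-Ras(G12V) libraries.

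Markers of other cell types made up the other 13. In the oligodendrocyte lineage, 8 of 9 tested markers differed, against 3.76% of all tested genes. These were Olig1 (3.98), Olig2 (4.05), Sox10 (6.14), Pdgfra (4.91), Cspg4 (3.26), Mbp (3.04), Mag (2.37) and Cnp (2.59), with adjusted p between 2.43e-05 for Sox10 and 0.0212 for Mag. The astrocyte markers Aldh1l1 and Fgfr3 differed by 3.10 and 1.96 (adjusted p = 0.00247 and 0.00386). The fibroblast and mural markers Dcn, Lum and Pdgfrb differed by -4.20, -3.88 and -2.70 (adjusted p = 0.0141, 0.0215 and 0.0230).

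These differences depend on the titles of the chemical model, which its treatment tags contradict. Grouped by the tags, a setting added after seeing the data, 2 of the 16 passed. Tslp then differed by 2.19 (adjusted p = 0.0160) and Sox10, with its sign changed, by -2.80 (adjusted p = 0.0113). Il18 was at -0.16, Aldh1l1 at -0.0155, Olig2 at -0.39 and Mbp at 0.12 (adjusted p = 0.768, 0.985, 0.606 and 0.922).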

How the results depend on the processing

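The member log2 fold changes were recomputed under 361 combinations of gene and alternative. In 316 direction and call held, in 20 a call was gained, in 17 one was lost, and in 8 the sign turned. Il33 with etoposide turned in 3, at -0.12 without DMSO library 1, -0.32 without DMSO library 3 and -0.22 without etoposide library 1, within a range of -0.32 to 0.77 over single libraries left out. The other 5 were differences between the models with the chemical model grouped by its treatment tags, at 3.80 for Lif, 3.07 for Cxcl1, 3.88 for Ccl2, 1.96 for Csf1 and -0.30 for Cx3cl1. Among the other genes Il18 (-0.16), Aldh1l1 (-0.0155), Olig1 (-1.53), Olig2 (-0.39), Sox10 (-2.80) and Pdgfra (-2.32) turned there too, where 238 genes and 1 member passed.

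With H-Ras(G12V), 2161 genes passed, against 496 in the single fit of the 12 libraries and 639 with mCherry libraries 1 and 2 averaged, and members passing went to 1 in both, in place of 3. Leaving out 1 library gave 496 to 5716 genes and 1 to 7 members. With etoposide, 56 genes passed, against 22 at a mean of at least 5 FPKM and 194 in the single fit, and leaving out 1 library gave 4 to 3938 genes and 0 to 7 members. In the interaction contrast 475 genes passed, against 256 at a mean of at least 5 FPKM and 283 with mCherry libraries 1 and 2 averaged, and leaving out 1 library gave 277 to 2868 genes and 0 to 3 members. Without both mCherry library 3 and etoposide library 3, a fit chosen after seeing the data, 3947 genes and 5 members passed. Member counts take in any member that met the filter in the fit at hand. The cause of these changes was not tested.

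Pairing of the libraries by replicate number was not seen in the values. Same-numbered libraries had correlations of deviations of -0.04, 0.03 and 0.12 in the oncogene model and -0.27, -0.17 and -0.15 in the chemical model. Only H-Ras(G12V) library 3 matched its own number best. The deviations are from group means that hold the libraries standing apart, so they cannot exclude a shared preparation. With the replicate block 1681 genes passed with H-Ras(G12V) and 12 with etoposide, and Csf1 lost its call with H-Ras(G12V) (adjusted p = 0.102).

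With 3 libraries a group, FPKM without counts and 1 library in each model apart from its group, the precision of single genes is limited by the spread between libraries. Il6 in the oncogene model lies near the level of 1 fragment, where a difference was not detectable. Ccl5 did not reach the mean needed for a test in either model.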

Other observations

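Values of a further pair of cytokines related to members were as follows. Cntf, a gp130 cytokine of glia, read 5.33, 4.35 and 0.62 FPKM with etoposide, against 0.60, 0.40 and 0.34 FPKM with DMSO. With H-Ras(G12V) it read 7.72, 5.67 and 3.61 FPKM, against 2.61, 3.08 and 3.29 FPKM with mCherry, groups that did not overlap. It passed in neither model (limma adjusted p = 0.353 with etoposide and 0.0871 with H-Ras(G12V)). Il34, the other ligand of CSF1R, read 2.44, 3.50 and 3.78 FPKM with H-Ras(G12V), against 1.73, 1.87 and 8.18 FPKM with mCherry, and 2.69, 3.35 and 4.92 FPKM with etoposide, against 6.59, 4.81 and 7.07 FPKM with DMSO.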
